A study of Schizosaccharomyces pombe with 6 samples.

Results

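Expression of 10 genes that act in mitosis and cell division was followed across the 6 arrays: plo1, ark1, cdc25, cdc13, slp1, spo12, klp5, klp6, cdc15 and imp2. They were chosen by gene symbol, with earlier results of these data known. Each had 1 probe set of its own among the 2896 Schizosaccharomyces pombe genes tested, so all 10 were measured. The name mitotic kinases, cyclin, kinesins and ring proteins covers 7 of them; cdc25 encodes a phosphatase, slp1 an activator of a ubiquitin ligase and spo12 a small protein whose budding yeast counterpart acts in exit from mitosis. The h+ strain YHL6381 and the h- strain SPQ-01 had each been grown at 30 °C in YEPD until the OD600 reached 5.0, then mixed in equal parts and moved for 90 min to fresh YEPD or to YEPME, with 3 arrays per medium labelled as biological replicates 1 to 3. The design text describes the YEPME cultures as flocculated, that is, clumped, and the YEPD cultures as not flocculated. It gives the short codes of the 2 media the other way round from the sample labels; the medium named for each sample was followed here, and all signs of YEPME minus YEPD would turn under the other reading. The YEPME samples also carry a strain label that reads diploid. All values are log2 levels from RMA, in which 1 unit is a 2-fold change, and levels are compared only within a gene.

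Fission yeast enters mitosis when the phosphatase Cdc25 removes an inhibitory phosphate from the kinase Cdc2 bound to its B-type cyclin Cdc13. The Polo kinase Plo1 and the Aurora kinase Ark1 then organise the spindle, the kinetochores and the division site, and Slp1 turns on the anaphase promoting complex, which marks the cyclin and securin for destruction. Klp5 and Klp6 are kinesin-8 motors that work as partners in shortening microtubules, and Cdc15 and Imp2 are F-BAR proteins of the contractile ring. Transcripts of many such genes, among them plo1, spo12 and cdc15, peak at mitosis and are known targets of forkhead and MADS-box factors. In RNA from a whole culture, fewer dividing cells and less RNA per dividing cell cannot be told apart.

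Replicate 1 of both media stood apart from replicates 2 and 3. Its deposited values have up to 10 digits and those of the other 4 arrays up to 6, and the background limit, the 95th percentile of the probe sets for Saccharomyces cerevisiae genes, was 5.60 and 5.59 in replicate 1 against 4.78 to 4.81 elsewhere. Differences between the cultures and between the handling of the arrays cannot be told apart here, and results are given by replicate. All 5 P cell markers (map1, map2, map3, map4 and sxa1) and all 8 M cell markers (mfm1, mfm2, mfm3, mam1, mam2, mam3, mam4 and sxa2) were above background on every array. Their summed linear levels ran from 5421 to 6557 for the P cell genes, while the M cell genes summed to 14454 in YEPD replicate 1, to 5223 in YEPME replicate 1 and to 3978 to 4701 on the other 4 arrays.

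The mitotic genes differed little and without a shared direction between the media in replicates 2 and 3, were mostly lower in YEPME in replicate 1, and were mostly lower in replicate 1 than in the other replicates in both media. Over all 6 arrays 0 of the 10 genes passed limma with no block at an adjusted p under 0.05 (adjusted p = 0.999 for each), beside 0% of all genes. At an unadjusted p under 0.05 there were 0 of the 10, beside 32 of the 2896 genes. A limma fit with a term for replicate 1 also called 0 of 10 (lowest adjusted p = 0.154, for spo12), against 2.07% of all genes. There 1 of the 10 had an unadjusted p under 0.05, beside 478 of the 2896 genes. In that fit spo12 differed by -0.33 ± 0.08 (SE), plo1 by -0.28 ± 0.12 and ark1 by -0.26 ± 0.13. The YEPD and YEPME values overlapped for all 10 genes, as they did for all but 5.7% of the genes tested. The median difference of the 10 genes over 6 arrays was -0.156, beside -0.009 for all genes. In the fit with no block, leaving out YEPD replicate 2 or 3 moved the median of the 10 genes to -0.055 or -0.051. It moved to -0.284 without YEPD replicate 1, to -0.294 or -0.305 without YEPME replicate 2 or 3, and to 0.212 without YEPME replicate 1. Such a fit weighs replicate 1 unequally in the 2 media, so the level difference of replicate 1 enters these medians. With the replicate 1 term the median was -0.0422 without the YEPD or the YEPME array of replicate 1. It was -0.201 to -0.206 in that fit without 1 array of replicates 2 and 3.

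**Figure D1:**
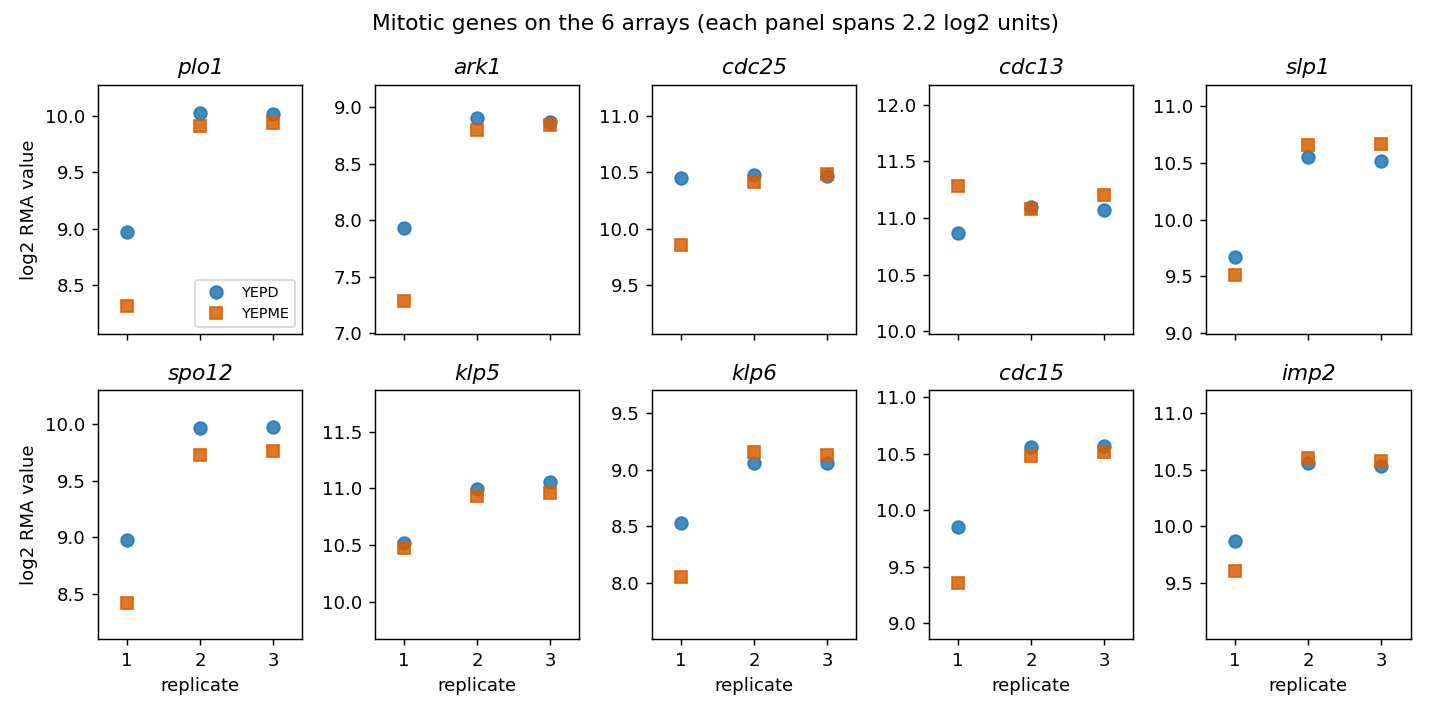
Each panel plots the log2 RMA value of 1 gene (vertical axis, the same span of log2 units in every panel) against the replicate number, with circles for YEPD and squares for YEPME, 1 array each. For plo1, ark1, slp1, spo12, klp5, klp6, cdc15 and imp2, both replicate 1 values lie below the other 4.

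The Polo kinase gene plo1 (SPAC23C11.16) had log2 levels of 8.97, 10.03 and 10.01 in YEPD replicates 1, 2 and 3, and of 8.32, 9.90 and 9.94 in YEPME. Its mean was 9.67 ± 0.61 (SD, n = 3) in YEPD and 9.39 ± 0.93 in YEPME, so that the spread between replicates exceeded the difference between media. YEPME was the lower medium in every pair, with YEPME minus YEPD differences of -0.65, -0.12 and -0.08 in replicates 1, 2 and 3. Among the 10 genes plo1 had both the lowest level in replicate 1 relative to replicates 2 and 3 and the lowest difference between media in replicate 1.

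The Aurora kinase gene ark1 (SPCC320.13C), whose product corrects faulty spindle attachments, gave 7.93, 8.90 and 8.87 in YEPD and 7.29, 8.79 and 8.84 in YEPME. Its pattern was close to that of plo1: the differences between media were -0.64, -0.11 and -0.03 in replicates 1, 2 and 3. Its lowest value, in YEPME replicate 1, lay 1.70 log2 units above the background limit of that array, the nearest approach to background of any of the 10 genes.

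The phosphatase gene cdc25 (SPAC24H6.05) measured 10.45, 10.48 and 10.47 in YEPD and 9.86, 10.41 and 10.48 in YEPME. The YEPME replicate 1 array alone was low, and the other values lay close together. The pair differences were -0.59, -0.06 and 0.02.

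The cyclin gene cdc13 (SPBC582.03) was the exception to the pattern of replicate 1, with 10.87, 11.10 and 11.07 in YEPD and 11.28, 11.08 and 11.21 in YEPME. Its YEPD replicate 1 value was the lowest of the 6 and its YEPME replicate 1 value the highest. The pair differences were 0.41, -0.02 and 0.13, and the means 11.01 ± 0.13 and 11.19 ± 0.10 (SD, n = 3).

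The gene slp1 (SPAC821.08C), for the Cdc20-type activator of the anaphase promoting complex, had levels of 9.67, 10.56 and 10.52 in YEPD and 9.51, 10.66 and 10.67 in YEPME. Its pair differences were -0.16, 0.10 and 0.15, lower in YEPME in replicate 1 and higher in replicates 2 and 3.

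The gene spo12 (SPAC3F10.15C) had levels of 8.98, 9.96 and 9.97 in YEPD and 8.42, 9.73 and 9.76 in YEPME. YEPME was the lower in each pair, with differences of -0.56, -0.23 and -0.21, and within replicates 2 and 3 both YEPME values lay below both YEPD values.

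The kinesin-8 genes klp5 (SPBC2F12.13) and klp6 (SPBC1685.15C) did not show the same pattern. klp5 gave 10.51, 10.99 and 11.06 in YEPD and 10.48, 10.93 and 10.96 in YEPME, with pair differences of -0.04, -0.06 and -0.10. klp6 gave 8.53, 9.06 and 9.06 in YEPD and 8.05, 9.16 and 9.13 in YEPME, with pair differences of -0.48, 0.10 and 0.07. The klp5 differences were close to each other in all 3 pairs, whereas that of klp6 in replicate 1 was several times larger than, and opposite to, the others. The difference between these 2 genes was not tested.

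The ring genes cdc15 (SPAC20G8.05C) and imp2 (SPBC11C11.02) were also lower in YEPME in replicate 1 and close between media in the other pairs. cdc15 had levels of 9.85, 10.56 and 10.57 in YEPD and 9.35, 10.48 and 10.52 in YEPME, which are differences of -0.50, -0.07 and -0.05. imp2 had levels of 9.87, 10.56 and 10.53 in YEPD and 9.60, 10.60 and 10.58 in YEPME, which are differences of -0.27, 0.04 and 0.05.

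**Figure D2:**
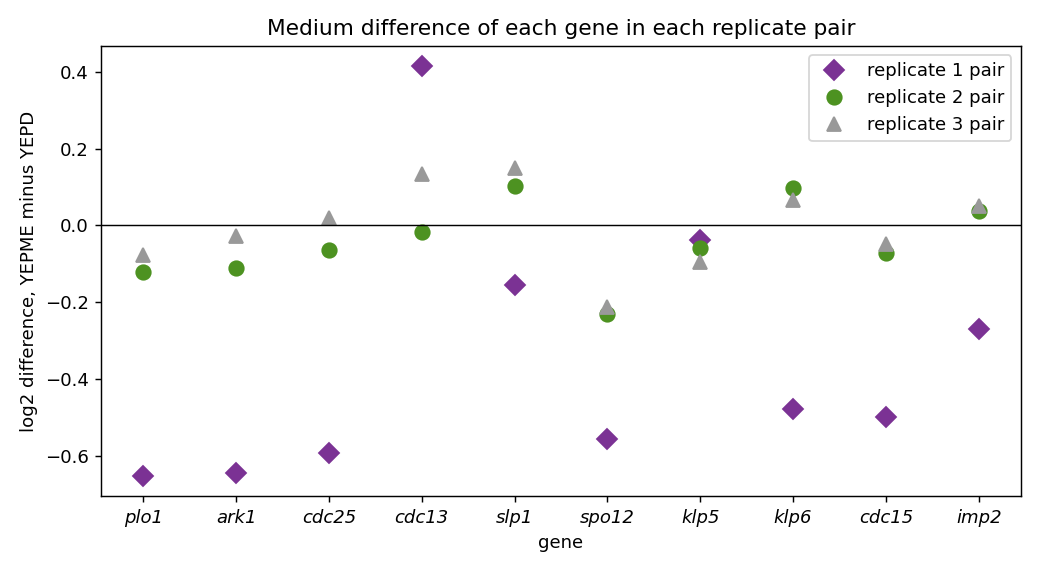
The log2 difference, YEPME minus YEPD, is plotted for each gene in each replicate pair, with 1 array per medium behind every point. The replicate 1 points (diamonds) run from -0.65 to 0.41, and the points of replicates 2 and 3 (circles and triangles) from -0.23 to 0.15.

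Within replicates 2 and 3 alone, with 2 arrays per medium, spo12 fell by 0.22 ± 0.03 (SE) in YEPME (limma, adjusted p = 0.0159), a 1.17-fold lower level. It was the 1 gene of the 10 that passed downward, beside a background of 8.7% of all genes, and 0 passed upward, beside 6.91%. The call needed both YEPD arrays, although without YEPD replicate 2 or 3 the spo12 difference stayed at -0.227 or -0.215. Those fits leave 1 YEPD array, and calls over all genes fell in them too, as given below. In the fit with both YEPD arrays slp1 differed by 0.12 ± 0.03 (limma, adjusted p = 0.0659) and plo1 by -0.10 ± 0.03 (adjusted p = 0.1). There klp6 differed by 0.08 ± 0.03 (adjusted p = 0.143), and the other 6 genes had adjusted p-values of 0.229 to 0.712. In all, 5 genes (plo1, ark1, spo12, klp5 and cdc15) were lower in YEPME in both of these pairs, as were 36.2% of all genes, and 3 (slp1, klp6 and imp2) were higher in both, as were 38.1%. The median absolute difference of the 10 genes over these pairs was 0.074, the same as that of all genes to this precision.

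In the replicate 1 pair, 9 of the 10 genes were lower in YEPME, all but cdc13, beside 55.6% of all genes; this single pair has no replicate of its own. The median difference was -0.489, beside -0.042 for all genes. In the ranking of the 2896 genes by this difference, plo1 stood at the 4.28th percentile, ark1 at 4.49, cdc25 at 5.77, spo12 at 6.42, cdc15 at 8.22 and klp6 at 8.98. The remaining members lay further in: imp2 at 21.9, slp1 at 34.1, klp5 at 50.4 and cdc13 at 90.0. As levels, plo1, ark1 and cdc25 were 1.57-fold, 1.56-fold and 1.51-fold lower in YEPME in this pair.

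Whether the difference between media departed between replicate 1 and replicates 2 and 3 was tested with a limma interaction term, which takes the 2 replicate 1 arrays to vary like the others. The term was called for 9 of the 10 genes. It was negative for 8 of them, beside 27.4% of all genes, and positive for cdc13, beside 19%. The lowest adjusted p was 0.00267 for klp6, followed by 0.00283 for plo1, 0.00332 for ark1 and 0.00402 for cdc25. klp5 alone did not pass (0.04 ± 0.07, SE, adjusted p = 0.656). Without YEPD replicate 2 or YEPD replicate 3 the median of this term over the 10 genes was -0.381 or -0.391, beside -0.386 with every array. Those fits leave 1 YEPD array in replicates 2 and 3. Fewer of the 10 genes and fewer of all genes passed in them, as given below. Of the 9 genes, 3 (slp1, klp6 and imp2) were lower in YEPME in replicate 1 and higher in both other pairs, which was also the order of signs for 21.4% of all genes. The summed M cell marker level was also lower in YEPME than in YEPD in this pair, as given above, and its part in these differences was not tested.

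The level of the mitotic genes in replicate 1 was lower than in replicates 2 and 3 for 8 of the 10 by limma with the medium as a term, beside 36% of all genes, and higher for 0, beside 35%. For these 8 genes both replicate 1 values lay below all 4 others, as for 38.3% of all genes. plo1 differed by -1.33 ± 0.13 on the log2 scale (SE, adjusted p = 6.32e-04), a 2.51-fold lower level. ark1 was 2.36-fold lower (-1.24 ± 0.14, adjusted p = 9.05e-04), spo12 2.23-fold (-1.16 ± 0.09, adjusted p = 2.70e-04) and slp1 2.01-fold (-1.01 ± 0.08, adjusted p = 2.78e-04). The ring genes cdc15 and imp2 differed by -0.93 ± 0.11 and -0.83 ± 0.08, klp6 by -0.81 ± 0.13 and klp5 by -0.49 ± 0.05, with adjusted p-values of 6.07e-04 to 0.0036. The median of the 10 genes was -0.879, beside -0.002 for all genes, and 5% of all genes lay below -1.24. In the ranking of all genes by this difference, plo1 stood at the 4.35th percentile, ark1 at 4.97, spo12 at 5.94, slp1 at 8.11 and cdc15 at 9.60.

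The step between replicate 1 and the others was present in both media for these 8 genes. The YEPME step minus the YEPD step is the interaction term given above, not a further result. That term was called negative for 7 of these 8 genes, beside 27.4% of all genes. Among the YEPD arrays replicate 1 minus the others was -1.05 for plo1, -0.99 for spo12, -0.95 for ark1, -0.87 for slp1, -0.71 for cdc15, -0.67 for imp2, -0.53 for klp6 and -0.51 for klp5. Among the YEPME arrays the corresponding values were -1.60 for plo1, -1.32 for spo12, -1.53 for ark1, -1.15 for slp1, -1.15 for cdc15, -0.99 for imp2, -1.09 for klp6 and -0.47 for klp5. The klp5 step was about the same in both media. Neither cdc25 (-0.31 ± 0.14, SE, adjusted p = 0.094) nor cdc13 (-0.04 ± 0.10, adjusted p = 0.735) passed, and for both the 2 replicate 1 arrays were unlike each other. cdc25 differed by -0.02 among the YEPD arrays and by -0.59 among the YEPME arrays, and without YEPD replicate 1 its level difference was -0.591. In that fit, as in the next, 1 replicate 1 array is set against the other 2 of its medium. That array is assumed to vary like the arrays of replicates 2 and 3, from which the spread comes, so only the sizes are given. cdc13 differed by -0.22 and by 0.14, and without YEPME replicate 1 its level difference was -0.216.

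**Figure D3:**
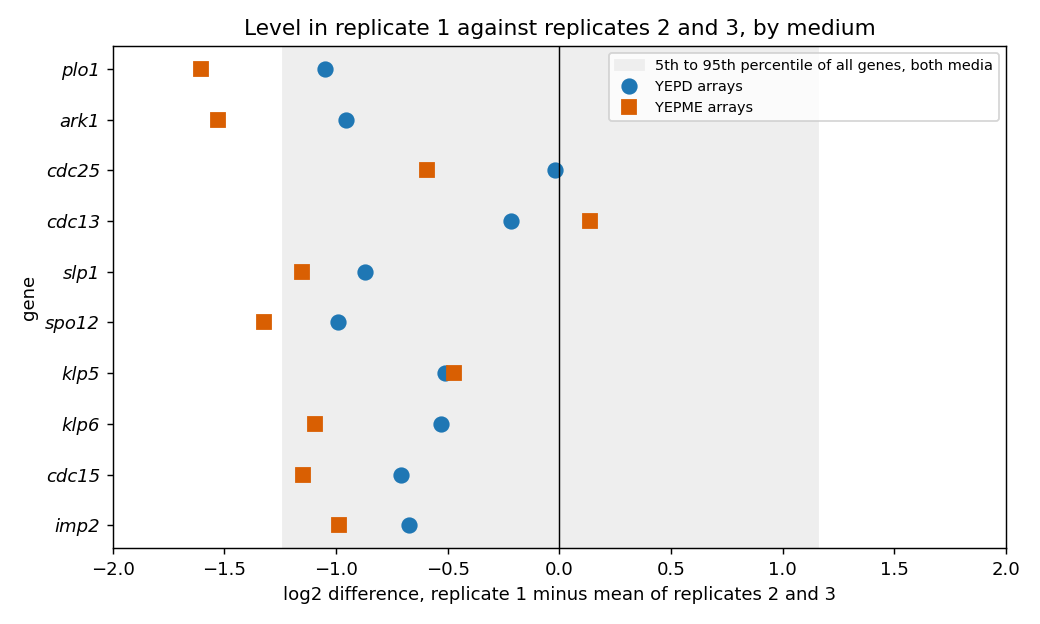
For each gene the log2 level in replicate 1 minus the mean of replicates 2 and 3 is plotted within YEPD (circles) and within YEPME (squares), with the 5th to 95th percentile of this difference over all 2896 genes (-1.24 to 1.16, both media averaged) shaded. The plo1, ark1 and spo12 points in YEPME lie left of the shaded range, and cdc13 in YEPME is the only point right of 0.

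Other cell cycle genes were read from lists with the 10 genes left out, against the 36% of all genes called lower and 35% called higher in replicate 1. Among 21 genes of the kinetochore, the spindle checkpoint and the chromosomal passenger complex, in which Ark1 is the kinase, 12 were lower and 4 higher in replicate 1 than in replicates 2 and 3, with a median of -0.399. Of 18 genes for the anaphase promoting complex, cohesin, separase and condensin, 9 were lower and 5 higher (median -0.213). For 34 genes of the contractile ring, the septins and the septation initiation network the counts were 10 lower and 12 higher (median 0.073), for 21 spindle, spindle pole and kinesin genes 6 and 6 (median -0.014), and for 20 regulators of mitotic entry and exit 6 and 6 (median 0.022). For the 7 genes for forkhead and MADS-box factors and for cell separation they were 2 and 2 (median 0.014). For comparison, 7 of 14 G1/S transcription genes were higher in replicate 1 and 2 lower (median 0.368), and 7 of 10 histone genes were higher and 1 lower (median 0.548). The M cell markers had 4 of 8 higher and 0 lower (median 0.904), and the P cell markers 1 of 5 higher and 2 lower (median 0.094).

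In the replicate 1 pair, 27 of the 34 ring and septation genes were lower in YEPME (median -0.161), and the interaction term was called negative for 17 of them and positive for 1, where all genes had 55.6% lower, 27.4% negative and 19% positive. The largest of these differences were -0.90 for ain1, for the actin crosslinker alpha-actinin, -0.61 for etd1, for an activator of septation, and -0.61 for the septin gene spn4. Of the spindle and kinesin genes 14 of 21 were lower (median -0.112; 7 interaction calls negative and 3 positive), with the kinesin-5 gene cut7 at -0.75, the kinesin-1 gene klp3 at -0.62 and mal3, for the microtubule end-binding protein, at -0.48. Among the 18 cohesin, condensin and ubiquitin ligase genes 12 were lower (median -0.153; 6 negative and 1 positive). There psm3, for a cohesin subunit, differed by -0.93, cut20, for an anaphase promoting complex subunit, by -0.54 and top2, for topoisomerase II, by -0.50. The kinetochore and checkpoint genes went both ways, with 11 of 21 lower (median -0.074; 7 negative and 4 positive): cnp3, for the CENP-C protein, differed by 0.84 and spc24 by 0.49, against -0.54 for the checkpoint gene mad3. The regulators of entry and exit did too, with 11 of 20 lower (median -0.051; 6 negative and 4 positive). The cyclin gene puc1, suc1, for a Cdc2-binding protein, and the kinase gene cdr2 had the largest differences there, of 0.54, 0.49 and 0.46.

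Of the 7 measured genes for forkhead and MADS-box factors and for cell separation, 3 had a negative interaction term and 0 a positive one, beside 27.4% and 19% of all genes. fkh2, for a forkhead factor that binds mitotic gene promoters, differed by -0.87 in replicate 1 and by -0.11 and 0.08 in the other pairs. mbx1, for the MADS-box factor of the same complex, differed by -0.54, 0.01 and -0.03, and its level in replicate 1 differed by -1.87 ± 0.13 (SE; limma, adjusted p = 2.11e-04). The level of fkh2 in replicate 1 did not pass (-0.33 ± 0.20, SE, limma, adjusted p = 0.194). In this list 2 genes were called higher and 2 lower in level, beside 35% and 36% of all genes. The separation gene eng1, for a glucanase that cuts the septum, differed between media by -0.49, 0.02 and 0.28 in replicates 1, 2 and 3.

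Within replicates 2 and 3, where limma called 6.91% of all genes higher and 8.7% lower in YEPME, 3 of the 20 entry and exit regulators were called higher and 1 lower. In the other mitotic lists 1 of 18, 1 of 21, 1 of 21, 2 of 34 and 1 of 7 were called higher and 0 lower. clp1, for a phosphatase that removes phosphates placed by Cdc2, rose by 0.23 ± 0.05 (SE, limma, adjusted p = 0.0351). The S phase cyclin gene cig2 rose by 0.21 ± 0.03 (adjusted p = 0.0192). srw1 (listed under its synonym ste9), for the other type of activator of the anaphase promoting complex, rose by 0.18 ± 0.04 (adjusted p = 0.0369). klp8, of the kinesin family, rose by 0.44 ± 0.04 (adjusted p = 0.00498) and differed by -0.36 in replicate 1. spc25, fim1, for the actin bundler fimbrin, the septin gene spn2 and adg3 rose by 0.19, 0.17, 0.15 and 0.29. Not all of these rises were seen in replicate 1. There cig2, srw1, fim1 and spn2 differed by -0.25, -0.34, -0.13 and -0.17, and clp1, spc25 and adg3 by 0.07, 0.26 and 0.05.

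**Figure D4:**
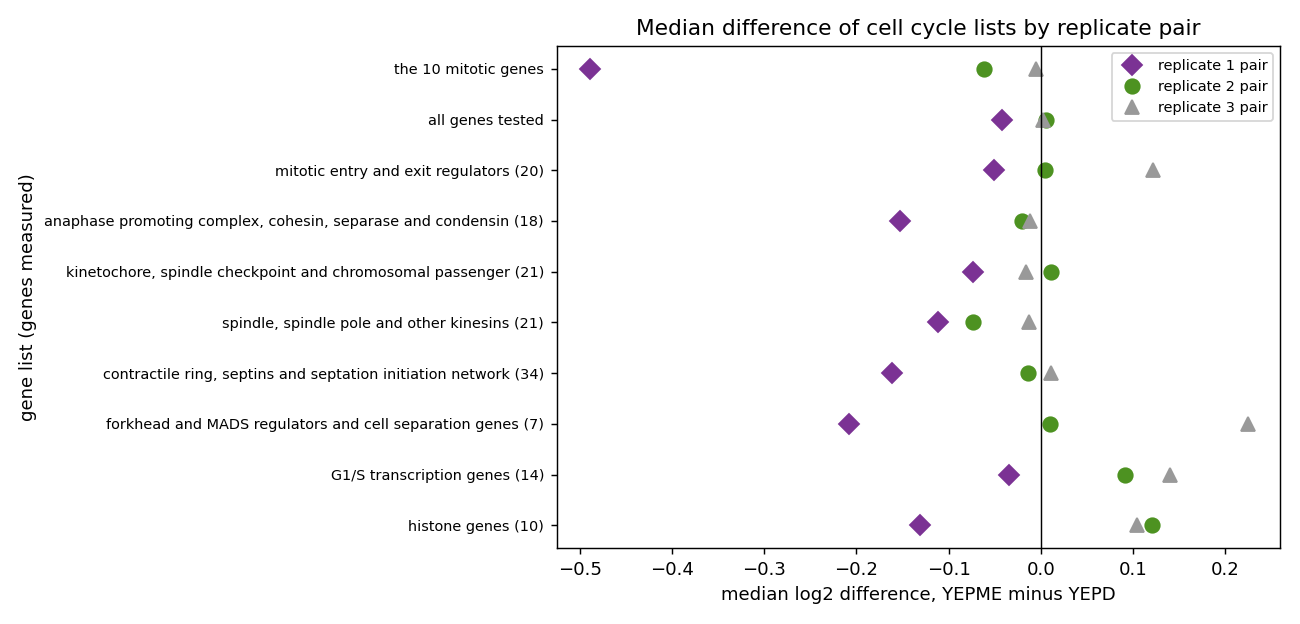
Median log2 difference, YEPME minus YEPD, of each of the 8 cell cycle lists in each replicate pair, with the number of measured genes in brackets and all 2896 tested genes for comparison. The median of the 10 mitotic genes in replicate 1 (-0.489) lies left of the 8 list medians of that pair, of which the lowest is -0.208 (the M cell markers, not plotted, had -0.971), while in replicates 2 and 3 it lies between -0.062 and -0.005.

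The mean profile of the 10 genes, each centred on its own mean, was -0.37, 0.29 and 0.28 in YEPD replicates 1, 2 and 3 and -0.72, 0.24 and 0.28 in YEPME. Likeness to it was measured as the root mean square distance over the 6 arrays, with a median of 0.426 over all genes. Outside the 10 the closest gene was pic1 (SPBC336.15), for the INCENP protein that binds Ark1, at a distance of 0.026, with levels of 9.21, 9.89 and 9.89 in YEPD and 8.81, 9.82 and 9.85 in YEPME. It was followed by the helicase gene rqh1 at 0.031, set11 at 0.032, the splicing helicase gene cdc28 at 0.033, uds1 at 0.034 and the checkpoint kinase gene tel1 at 0.040. Of the 10 themselves imp2 (0.040), klp6 (0.060) and cdc15 (0.071) lay nearest to their mean profile and cdc13 (0.429) farthest, about where the median of all genes lay. ark1 lay at 0.220 from this profile, so the distance of pic1 does not measure its likeness to ark1.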

How the data were processed

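Biotin-labelled cRNA from total RNA was hybridised to Affymetrix arrays, 3 per medium. The values the authors deposited are log2 levels of probe sets from RMA and Partek, per the submitters' processing notes; their versions, their settings and any joint normalization are not stated there. RMA subtracts background, equalises the arrays' distributions and summarises probes, which makes values relative.

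Of 10924 probe sets, 2914 had 1 S. pombe gene, matched to the RefSeq annotation ASM294v3 by gene number (3 by symbol only), giving 2896 genes; for 14 with several sets the brightest stood. Groups came from the growth label and replicate numbers from titles. Differences were tested with limma 3.58.1 (lmFit, eBayes, two-sided, Benjamini-Hochberg over all genes) with no block, with a replicate 1 term, within replicates 2 and 3, and for the interaction. Code was tested on simulated data. The small number of arrays limits precision, and p-values measure the spread between these arrays. Same-numbered arrays deviated together (r = 0.853, 0.835 and 0.836), but numbers 2 and 3 also correlated at 0.816. Each medium was centred on its 3 arrays, so the step of replicate 1 makes numbers 2 and 3 deviate together. The check therefore cannot tell whether YEPD replicate 2 belongs with YEPME replicate 2 or 3. Those pairs follow the numbers in the titles. Members and lists were chosen with earlier results of these data known. Named list genes had the 3 largest differences in replicate 1 or the 2 largest over replicates 2 and 3. Alternatives were a replicate block, median centring, quantile normalization, a filter on dim genes, averaged probe sets, eBayes with trend and robust settings, and leaving out each array.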

Additional observations from a re-analysis of the deposited data

Results flagged for a closer look

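The YEPME minus YEPD difference in replicate 1 departed from that in replicates 2 and 3 for 9 of the 10 genes (limma interaction, adjusted p from 0.00267 to 0.029). The departure, on the log2 scale, was -0.553 for plo1, -0.575 for ark1, -0.57 for cdc25, -0.561 for klp6, -0.437 for cdc15, -0.335 for spo12, -0.314 for imp2, -0.28 for slp1 and 0.355 for cdc13. Over all genes the same term was called negative for 27.4% and positive for 19%, so such a departure was common on these arrays. Replicate 1 is a single pair, and its cultures and its array handling cannot be told apart.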

How the results depend on the processing

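With the replicate block, 0 of the 10 genes passed over 6 arrays (317 of all genes at an unadjusted p under 0.05) and 1, spo12, within replicates 2 and 3 (695 of all genes against 452 without the block). It was run for these 2 fits, and the members called were unchanged in both. With eBayes trend and robust settings, 2 of the 10 passed within replicates 2 and 3, slp1 and spo12 (753 of all genes). Leaving out 1 array gave 0 to 1 of the 10 there (19 or 20 of all genes without a YEPD array), 0 to 1 with a replicate 1 term (60 of all genes with every array, 0 without any one array of replicates 2 and 3), where leaving out a replicate 1 array gives the fit within replicates 2 and 3 by construction (452 of all genes, spo12 called), and 5 to 9 for the interaction (592 and 627 of all genes without a YEPD array, against 1344). The interaction could not be fitted without a replicate 1 array. Median centring, quantile normalization, the filter and averaged probe sets left the 5 counts of called members as reported.

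Directions that turned belonged to differences that were not called in the main fits, with no array left out. Over 6 arrays, leaving out 1 array gave -0.166 to 0.0818 for klp6, -0.101 to 0.0434 for imp2 and -0.00555 to 0.125 for slp1, with 0.0818 (klp6) and 0.0433 (imp2) without YEPD replicate 1. Within replicates 2 and 3 it gave -0.0585 to 0.0127 for cdc25 and -0.0039 to 0.121 for cdc13. The level of cdc13 in replicate 1 against the others was 0.0348 after median centring and -0.216 to 0.139 with 1 array left out. The cause was not tested. All 10 genes were at least 1.70 log2 units above the background limit on every array.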
